A study of Drosophila melanogaster with 12 samples.

Results

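The Wnt ligand genes of *Drosophila melanogaster* described here are *wg*, *Wnt2*, *Wnt4*, *Wnt5*, *Wnt6* and *Wnt10*. They were chosen by their symbols and make up 6 of the 17208 genes in each of the deposited tables for eye antennal discs and for wing discs. *WntD*, the other gene of the family, was not analysed here. RNA was sequenced from pools of imaginal discs of larvae in the third instar. The eye antennal pools held 40 discs each and came from 3 libraries of GMR-Gal4 > UAS-*fuss* larvae and 3 libraries of GMR-Gal4 > w1118 controls. The wing pools held 30 discs each and came from 3 libraries of nub-Gal4 > UAS-*fuss* larvae and 3 libraries of nub-Gal4 > w1118 controls. All libraries of a tissue thus carried its Gal4 driver. GMR-Gal4 drives expression posterior to the morphogenetic furrow of the eye disc and nub-Gal4 in the wing pouch, so the pools also held many cells outside the driver's domain. A source field of the eye samples names nub-Gal4 where their genotype field and the methods of the study name GMR-Gal4, and GMR-Gal4 was used.

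Wnt proteins are secreted, lipid-modified glycoproteins. Porcupine attaches the lipid in the endoplasmic reticulum, Wntless carries the ligand to the cell surface, and the ligand then binds Frizzled receptors together with the LRP5/6 homologue Arrow. This binding frees Armadillo, the fly β-catenin, from the destruction complex of Axin, Apc, Shaggy and Casein kinase Iα, so that Armadillo can act with the DNA-binding protein Pangolin. *wg* is the founding member and patterns the wing margin, the notum and the margin of the eye disc, where it opposes retinal differentiation. Some Wnt ligands bind other receptors, among them Derailed, a Ryk-type receptor for Wnt5 in axon guidance.

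The values are the authors' mean normalized counts, which average the 6 libraries of a tissue over both genotypes. They say what the level of each gene was in a tissue and nothing of how it differed between *fuss* overexpression and control. Values per library were not analysed here. The depth of each library and the spread between libraries cannot be told from these means. No test was possible with the means alone, and every difference below is a description. The 2 tissues were normalized separately by the authors, and 4 of the 6 eye libraries but 2 of the 6 wing libraries ran on lane 6. In wing discs all 3 *fuss* libraries ran on lane 5, and 2 of the 3 controls on lane 6. In eye discs each genotype had 1 library on lane 5 and 2 on lane 6. Tissue, driver, the separate normalization and the unequal lanes cannot be told apart in any eye over wing ratio of these means. The mean normalized counts summed to 29977900 in the eye table and 34175800 in the wing table. To set the tissues side by side, each table was divided by its own sum and multiplied by 1000000, and the result is called CPM below, where C stands for the mean normalized counts. The driven gene, *fuss*, had a mean normalized count of 16643 in eye antennal discs and 10363 in wing discs. In these means the transgene, the endogenous gene and both genotypes are counted together.

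The labelled tissues were checked with marker genes. All 11 retinal markers were at least 2-fold higher in the eye than in the wing pools, and 6 of 7 wing markers were at least 2-fold higher in the wing pools. Of 6 antennal markers, 4 were at least 2-fold higher in the eye pools. Markers of other cell types were detected as well. Of 5 haemocyte markers, 4 were at least 2-fold higher in eye discs, and their summed CPM stood 3.16 times as high in eye as in wing discs. Summed markers stood higher in wing discs for the larval fat body (2.55 times, with 3 of 4 genes at least 2-fold higher), adepithelial myoblasts (2.08 times, 2 of 4 genes) and trachea (6.99 times, 2 of 2 genes). No marker was at 0 in either tissue. Their part in the levels of the Wnt genes was not tested. In such bulk pools, fewer cells of a type and less RNA per cell cannot be told apart.

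All members were detected in both tissues, and 5 of the 6 lay far above *Wnt10* in both. *Wnt5* (FBgn0010194) had the highest mean normalized count, 4009 in eye antennal discs and 5027 in wing discs. It has no intron in the BDGP6.54 annotation, where it spans 4005 bases of chromosome X from 18501401 to 18505405 on the minus strand. *wg* (FBgn0284084) had 2253 in eye and 2718 in wing discs. *Wnt6* (FBgn0031902), whose RNA is known to resemble that of *wg* in discs, had 1569 in eye and 1184 in wing discs. *Wnt2* (FBgn0004360), which acts in the development of the testis and in pigment cells of the male reproductive tract, had 1192 in eye and 2014 in wing discs. It lies on arm 2R from 9494166 to 9503188 on the plus strand. *Wnt4* (FBgn0010453), a guidance cue for ventral retinal axons, had 616 in eye and 558 in wing discs. *Wnt10* (FBgn0031903) was the exception, with 17.1 in eye and 35.9 in wing discs, above the minimum of 10 used below.

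These counts are not corrected for transcript length, and neither are the percentiles that follow. Among the 14844 genes with a value above 0 in eye antennal discs, *Wnt5* stood at the 89.4th percentile, *wg* at the 81.3rd, *Wnt6* at the 75.8th, *Wnt2* at the 71.7th, *Wnt4* at the 61.8th and *Wnt10* at the 35.2nd. Among the 14357 such genes in wing discs, *Wnt5* stood at the 90.3rd percentile, *wg* at the 82.1st, *Wnt2* at the 77.6th, *Wnt6* at the 69.0th, *Wnt4* at the 58.9th and *Wnt10* at the 40.8th. The members thus covered most of the range from moderately high to barely detected genes, and the order of the extremes was the same in both tissues.

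To compare levels between genes, the values were divided by exon length, because a longer transcript gives more reads. The length was that of all annotated exons of a gene merged, between 2240 bases for *Wnt2* and 4005 bases for *Wnt5*. On this scale, CPM per kilobase, *Wnt5* had a level of 33.4 in eye and 36.7 in wing discs. That of *wg* was 25.8 in eye and 27.2 in wing discs. *Wnt6* reached 18.3 in eye and 12.1 in wing discs, and *Wnt2* reached 17.7 in eye and 26.3 in wing discs. *Wnt4* was lower, at 6.10 in eye and 4.85 in wing discs, and *Wnt10* was at 0.241 in eye and 0.442 in wing discs. The order from high to low was *Wnt5*, *wg*, *Wnt6*, *Wnt2*, *Wnt4*, *Wnt10* in eye discs and *Wnt5*, *wg*, *Wnt2*, *Wnt6*, *Wnt4*, *Wnt10* in wing discs. Of the 15 pairs of members, only *Wnt2* and *Wnt6* stood in another order in the other tissue by exon length. With the coding length in place of the exon length, *wg* was first in both tissues. *Wnt5* was then at rank 2 in eye and rank 3 in wing discs, behind *Wnt2* in wing discs only. By coding length *Wnt2* and *Wnt5* thus changed order between the tissues as well. The order of *Wnt5*, *wg* and, in wing discs, *Wnt2* was therefore not settled by these values, and the steps between neighbours cannot be set against a spread.

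**Figure D1:**
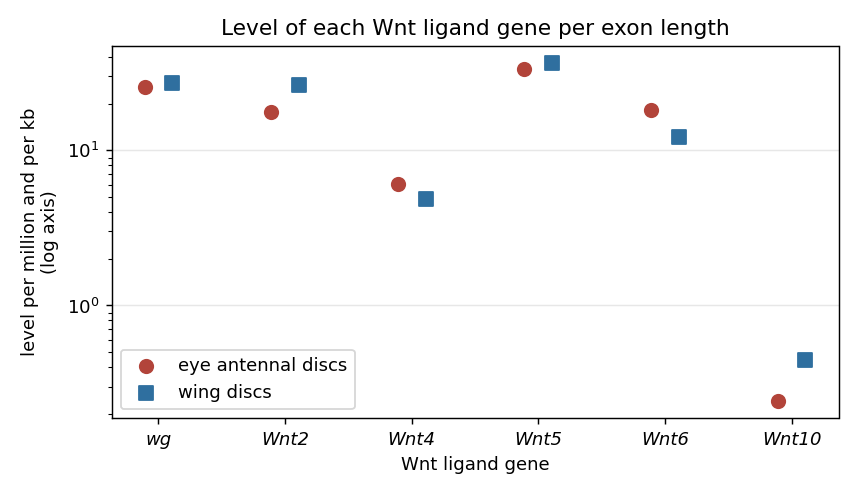
Level of each Wnt ligand gene, in CPM per kilobase of exon, on a log axis. Circles are eye antennal discs and squares are wing discs, 1 authors' mean over both genotypes each, with no error available. By exon length *Wnt5* and *wg* lie highest in both tissues, with *Wnt2* close to *wg* in wing discs. With coding length the order of these genes differs. *Wnt10* lies far below the others at 0.241 and 0.442.

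As shares of the summed level per length of the 6 genes, *Wnt5* took 32.9% in eye and 34.1% in wing discs and *wg* 25.4% in eye and 25.3% in wing discs. *Wnt2* took 17.5% in eye and 24.4% in wing discs, and *Wnt6* took 18.1% in eye and 11.3% in wing discs. *Wnt4* added 6.01% in eye and 4.50% in wing discs, and *Wnt10* added 0.237% in eye and 0.410% in wing discs. In these means over both genotypes the share of *wg* was thus nearly the same in both discs. The shares of *Wnt2* and *Wnt6* lay apart in opposite directions. The authors reported *wg* as significantly lower with *fuss* overexpression than in controls in wing discs, but not significantly different in eye discs. The wing mean of *wg* therefore joins 2 genotypes that they found unlike, and the likeness of the tissues in controls alone was not tested. All 3 wing *fuss* libraries ran on lane 5, but 2 of the 3 wing controls ran on lane 6. The part of the lane in the reported wing difference was not tested.

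With the sums of the tables set equal, 0 of the 6 members were at least 2-fold higher in eye discs and 0 were at least 2-fold higher in wing discs. Of the 10542 genes that reached 10 mean normalized counts in one or both tissues, 14.3% were at least 2-fold higher in eye discs and 6.24% in wing discs, so most genes, like the 6 members, lay within 2-fold. The log2 of eye over wing was -0.08 for *wg* and -0.14 for *Wnt5*, which put both close to equal levels in these means over both genotypes. It was -0.57 for *Wnt2*, whose wing level was 1.48 times its eye level. It was 0.33 for *Wnt4* and 0.60 for *Wnt6*, whose eye level was 1.51 times its wing level. It was -0.88 for *Wnt10*, whose wing level was 1.84 times its eye level. *Wnt10* passed 2-fold, at 2.09 times as high in wing discs, when the means were taken as deposited. That scaling moved the median of all genes by -0.19 on the log2 scale and put 7.51% of them at least 2-fold higher in wing discs. No member changed direction under any of the scalings tried. Each scaling shifts every log2 ratio by the same constant, so the kept directions add no separate support for any member.

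Over the 9465 genes that reached 10 mean normalized counts in both tissues, the median absolute log2 of eye over wing was 0.18, against 0.45 over the 6 members. Within less than 1.5-fold of equal levels were 4 of the 6 members and 79.4% of these genes. In the order of all their ratios, which no scaling changes, *Wnt10* stood at the 5.22nd percentile and *Wnt2* at the 7.86th, towards the wing end. *Wnt5* at the 27.2nd and *wg* at the 35.6th stood between that end and the middle, and *Wnt4* at the 81.3rd and *Wnt6* at the 87.3rd towards the eye end.

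**Figure D2:**
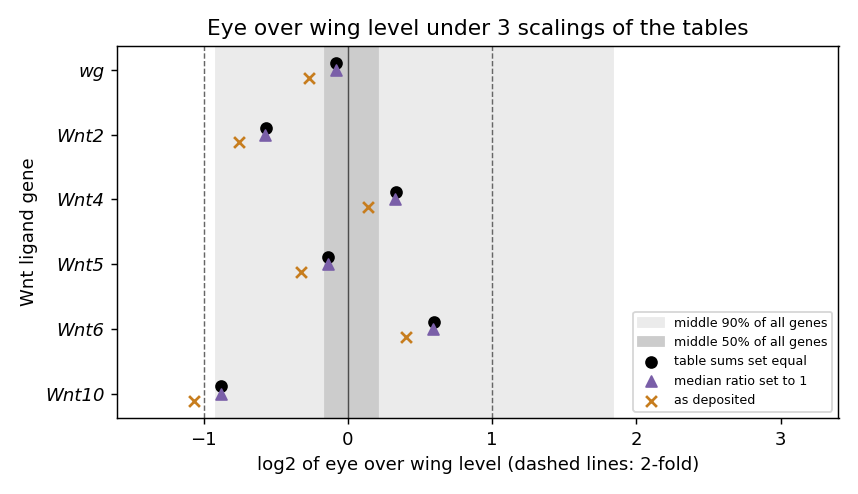
Log2 of the eye over the wing level of each Wnt ligand gene under 3 scalings of the separately normalized tables. Grey bands hold the middle 50% and 90% of the 9465 genes that reached 10 mean normalized counts in both tissues, with table sums set equal. Each scaling shifts all genes alike. Each gene keeps its side of 0 under all 3, and only *Wnt10* crosses a 2-fold line, with the means as deposited.

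Ratios between members within a tissue need no scaling between the tables, and they are given here per length. The level of *wg* was 1.40 times that of *Wnt6* in eye discs and 2.24 times in wing discs. It was 1.45 times that of *Wnt2* in eye discs and 1.04 times in wing discs, so that *wg* and *Wnt2* were nearly level in the wing. *wg* and *Wnt5* kept the closest ratio of all 15 pairs, with *wg* at 0.771 times *Wnt5* in eye discs and 0.742 times in wing discs. *Wnt2* stood at 0.968 times the level of *Wnt6* in eye discs and 2.17 times in wing discs, a 2.24-fold difference between the tissues. Larger differences involved *Wnt10*, the least counted member: *Wnt6* over *Wnt10* differed 2.77-fold and *Wnt4* over *Wnt10* differed 2.31-fold between the tissues.

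Of the 6 genes, 4 lie side by side on arm 2L, between 7255419 and 7377528 of BDGP6.54, a span of 122110 bases. *Wnt4* comes first, from 7255419 to 7277171 on the minus strand. *wg* follows from 7307159 to 7316265, *Wnt6* from 7333714 to 7352542 and *Wnt10* from 7363379 to 7377528, all on the plus strand. The gaps are 29987 bases between *Wnt4* and *wg*, 17448 bases between *wg* and *Wnt6* and 10836 bases between *Wnt6* and *Wnt10*. Between *wg* and *Wnt6* lies 1 annotated gene, *lncRNA:CR45304*, with a mean normalized count of 8.92 in eye and 1.91 in wing discs. Per length, the level of *wg* was 1.40 times that of its neighbour *Wnt6* in eye discs and 2.24 times in wing discs. The other neighbours lay further apart. *Wnt6* had 76.2 times the level of the adjacent *Wnt10* in eye discs and 27.5 times in wing discs. *wg* had 4.22 times the level of *Wnt4* in eye discs and 5.62 times in wing discs. An exon of *Wnt10* overlaps *asRNA:CR44063* on the other strand, and whether the counts used the strand is not given in the sources used here. Its own mean normalized count was 0.929 in eye and 0.518 in wing discs. The coding gene *CG31909* lies inside *Wnt4* without sharing an exon and had 1.49 in eye and 0.757 in wing discs.

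**Figure D3:**
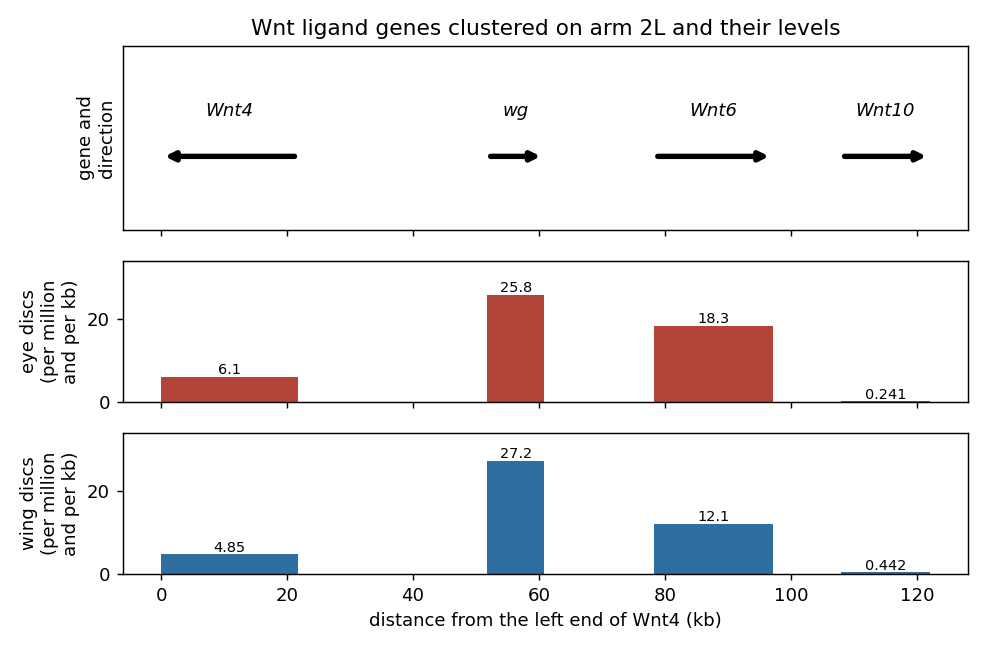
Map of the 4 clustered Wnt genes by distance from the left end of *Wnt4* in kilobases, with arrows in the direction of transcription. Bar heights give the CPM per kilobase in eye antennal and wing discs, with bar widths equal to the genes. *wg* and *Wnt6* carry high bars, *Wnt4* lower ones, and *Wnt10* bars near 0.

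The Wnt genes were then placed among 24 ligand genes of other signalling families, all of which reached 10 mean normalized counts in one or both tissues. By level per length the ranks among these 30 genes were 5 in eye and 6 in wing discs for *Wnt5*, 9 in eye and 8 in wing discs for *wg*, and 13 in eye and 9 in wing discs for *Wnt2*. *Wnt6* ranked 12 in eye and 15 in wing discs, *Wnt4* 18 in eye and 19 in wing discs, and *Wnt10* 28 in eye and 25 in wing discs. The level per length of the Hedgehog gene *hh* was 30.3 in eye and 31.5 in wing discs, between those of *Wnt5* and *wg*. That of *dpp*, the BMP ligand, was 13.8 in eye and 16.5 in wing discs. These were named after their values had been seen. Of the 24 other ligand genes, 4 were at least 2-fold higher in eye discs and 4 in wing discs, beside 14.3% and 6.24% of all genes in the same directions. Whether the other ligand genes differed from the Wnt genes in this was not tested. Examples were *jeb*, the ligand of the Alk receptor, with a mean normalized count of 1148 in eye and 8.32 in wing discs, and *boss*, the ligand of Sevenless on the R8 photoreceptor, with 192 in eye and 3.25 in wing discs. The activin gene *Actbeta* had 698 in eye discs and a log2 of eye over wing of 6.05. The EGFR ligand gene *vn* had 566 in eye and 2213 in wing discs.

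**Figure D4:**
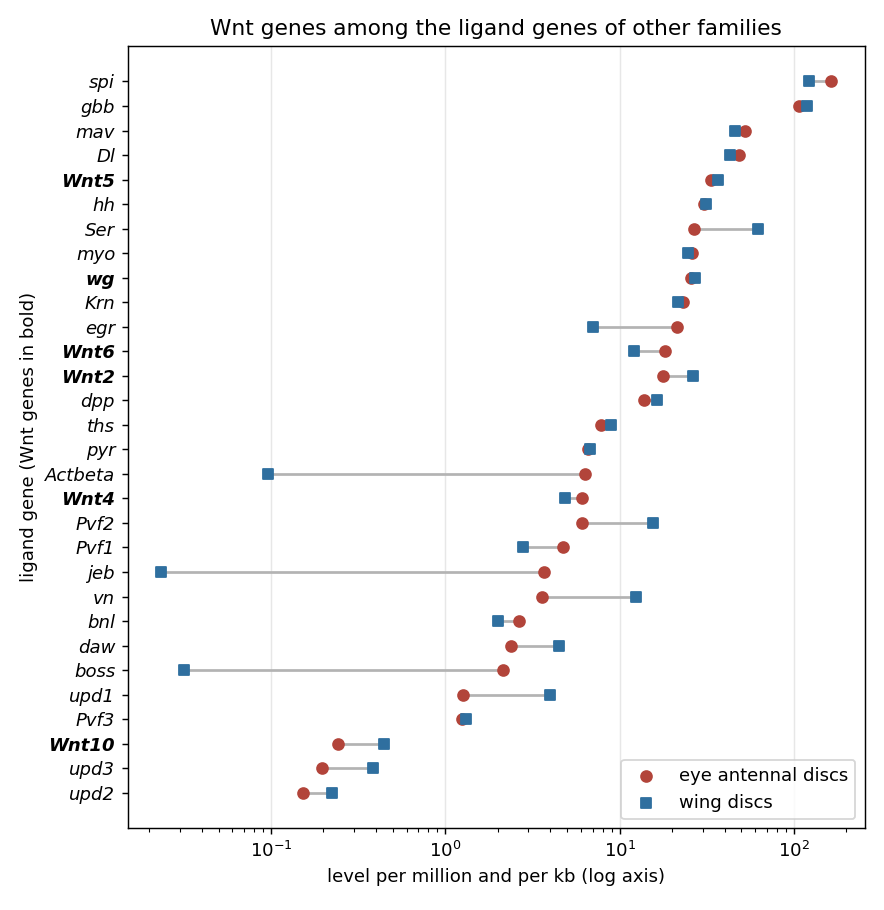
CPM per kilobase, on a log axis, of 30 ligand genes ordered by their level in eye antennal discs (circles), with wing discs as squares. The bold names are the 6 Wnt genes. Their circles and squares lie within 2-fold of each other, as do those of most other ligand genes, among them *hh* and *dpp*, while those of *jeb*, *boss* and *Actbeta* lie far apart.

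The genes that make, carry and restrain the ligands were measured as well. Of all genes, 14.3% were at least 2-fold higher in eye discs and 6.24% in wing discs. Whether the pathway lists here and below differed from these shares was not tested. Of 7 genes of Wnt lipidation and secretion, 0 were 2-fold apart between the tissues. *wls*, which encodes Wntless, had a mean normalized count of 3964 in eye and 6142 in wing discs, a log2 of eye over wing of -0.44. The retromer gene *Vps26* had 3529 in eye and 3590 in wing discs. The p24 cargo receptor genes *eca* and *opm* had log2 values of eye over wing of -0.15 and 0.14. Of 3 measured extracellular modulators, 1 was at least 2-fold higher in wing discs and 0 in eye discs. This was *Notum*, the secreted enzyme that removes the lipid of Wnt proteins and is induced by Wg signalling, with 534 in eye and 1622 in wing discs. The glypican genes had log2 values of eye over wing of -0.29 for *dally* and 0.08 for *dlp*.

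Of 11 receptor and co-receptor genes, 2 were at least 2-fold higher in eye discs and 0 in wing discs, and the share higher in eye discs was near the 14.3% of all genes. They were *Drl-2*, a Ryk-type receptor related to Derailed, with 204 in eye and 5.92 in wing discs, and *Ror*, a receptor tyrosine kinase of the nervous system, with 795 in eye and 53.1 in wing discs. Of 4 glial markers, 3 were at least 2-fold higher in eye discs, and their summed CPM stood 1.46 times as high in eye as in wing discs. Among them *repo* had 985 in eye and 16.3 in wing discs, while *nrv2*, the most counted of the 4, had 6602 in eye and 6557 in wing discs. The neuronal gene *elav*, on the retinal list, had 6354 in eye and 1649 in wing discs. The part of these markers in the values of *Drl-2* and *Ror* was not tested. The Frizzled genes lay in both directions. *fz2* had 13064 in eye and 26427 in wing discs, and *fz* had 3476 in eye and 6061 in wing discs. The log2 of eye over wing was -0.83 for *fz2*, -0.61 for *fz* and 0.38 for *fz3*. With the means as deposited *fz2* passed 2-fold, at -1.02.

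Of 9 genes of cytoplasmic transduction and 6 of nuclear transduction, 0 were 2-fold apart. The median log2 of eye over wing was 0.08 over the cytoplasmic and -0.08 over the nuclear genes. *arm*, the β-catenin gene, had 38963 in eye and 40318 in wing discs. The log2 values of eye over wing were 0.29 for *Apc*, -0.24 for *Apc2* and 0.18 for *gish*, a casein kinase gene. Among nuclear genes they lay between -0.13 for *nej*, the CBP acetyltransferase, and -0.01 for *pan*, with -0.11 for *CtBP*, -0.10 for *pygo* and -0.05 for *gro*, a co-repressor. Of 7 genes known as targets of Wg signalling in discs, 1 was at least 2-fold higher in eye and 2 in wing discs. The shares of all genes in these directions were 14.3% and 6.24%. *vg*, the wing selector gene, had 101 in eye and 6126 in wing discs, and it is also 1 of the 7 wing markers used above. *Notum*, which also stands among the extracellular genes, is given above. *sens*, a zinc finger gene of sensory precursors and R8 cells, had 708 in eye and 216 in wing discs. *fz3*, listed among the receptors as well, had 2265 in eye and 1978 in wing discs. These genes answer to other inputs too, and they were listed without regard to the tissue in which Wg regulates them.

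For each member the 3 genes with the most similar pair of mean normalized counts, not corrected for length, were looked up among the 9373 genes with a symbol and at least 10 in both tissues, by distance on the log2 scale over the 2 tissues. Nearest to *wg* were *Hat1*, *asl* and *CG1307*, at distances of 0.0042 to 0.010, and 415 genes lay within 0.25. Nearest to *Wnt5* were *PEK*, *pcm* and *shf*, with 267 genes within 0.25. Nearest to *Wnt4* were *CG6739*, *RhoL* and *CG32512*, with 149 genes within 0.25. *Wnt2* had 39 genes within 0.25, led by *MFS14*, *MsrA* and *CG13204*, and *Wnt6* had 40, led by *Ndfip*, *spas* and *TfIIFbeta*. *Wnt10* had 25, led by *CG2901*, *CG5665* and *se*. With 2 points for each gene this likeness describes uncorrected counts only, and genes of other lengths with like counts have other levels.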

How the data were processed

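Reads of the 12 libraries were quantified by the authors with Salmon and imported with tximeta. The submitters' processing notes name Salmon 1.1.0 and DESeq2 1.30.0 and the genome BDGP6. The deposited tables give for each gene 1 mean normalized count, a signal scaled by the factors of the authors and averaged over the 6 libraries of a tissue. They also hold 5 columns of the authors' comparison of *fuss* overexpression with control (a log2 fold change with its standard error, a statistic, and a raw and an adjusted p-value), and these were not used. Unassigned columns of single samples numbered 0. Values per library, and so the depth and precision of each, were not analysed here.

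Each table was divided by its sum and multiplied by 1000000, with no pseudocount, and eye over wing ratios were computed for genes that reached 10 mean normalized counts in one or both tissues. A gene counted as past the fold at 2-fold. Positions, exon lengths and coding lengths came from the BDGP6.54 annotation of Ensembl release 115, which matched 17083 gene identifiers. The tables hold 338 genes without a symbol. Sequences were not used here. Percentiles give the share of genes with a lower value. The members and gene lists were chosen with earlier results of these data known. Named genes were the members, *fuss*, in each pathway list and among other ligands up to 4 genes of largest ratio in either direction, marker lists as sums, and the 3 genes nearest to each member in level. Outside this rule *hh*, *dpp*, *pan*, *repo*, *nrv2*, *elav* and other genes in the cluster on arm 2L were named too. Alternatives were other scalings, folds, minimum counts, lengths and a pseudocount of 1. The ratio calculation was run on simulated data with planted ratios and no noise, which checks the arithmetic only. Python 3.11.15, numpy 2.4.6, pandas 2.3.3 and matplotlib 3.10.9 were used.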

Additional observations from a re-analysis of the deposited data

How the results depend on the processing

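The number of Wnt ligand genes at least 2-fold apart between eye and wing discs was 0. It was 1, *Wnt10*, with the means as deposited, and 2, *Wnt6* and *Wnt10*, with a fold of 1.5 in place of 2. It was also 0 with the median ratio of all genes set to 1 and with a pseudocount of 1. The same held without the 100 highest genes of either tissue in the sums and without *fuss* in the sums. With a fold of 3 it had to be 0, because it was 0 at 2-fold. A minimum of 10, or values above 0, in both tissues removed no member, so these settings could not change the count. A fold of 1.5 is 0.585 on the log2 scale, and *Wnt6* at 0.595 and *Wnt2* at -0.568 both lay close to it. Without the 100 highest genes in the sums they stood at 0.571 and -0.591, so that *Wnt2* and not *Wnt6* passed 1.5-fold. In none of the 30 recomputed log2 ratios of members did the sign turn. The scalings shift all members by the same constant, so these are not separate checks of each direction. Taking the means as deposited moved each log2 ratio by -0.19. Counting only genes that reached 10 lowered all 12 level percentiles. Coding length in place of exon length moved 5 of 12 ranks per length, and no length correction moved 0 of 12. Leaving out a library was not possible, because each value is a mean over all libraries of a tissue. No paired analysis was possible because the tables hold no value per library. Each mean joins both genotypes, so a member that responded to *fuss* in 1 tissue carries part of that response in its level.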
